A study of Rattus norvegicus with 12 samples.

Results

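The measurements concern miR-22-3p and miR-22-5p, the mature arms of the miR-22 hairpin, in small RNA libraries from rat hippocampus. These 2 miRNAs are among 753 mature miRNAs listed for each library, and both are among the 420 that passed a filter on rarely read miRNAs. The pair was selected on the ethanol against vehicle comparison of these same libraries, in which miR-22-3p had the smallest unadjusted p of the retained miRNAs. The group levels and fold changes of both arms are therefore a description, and no test of them is given. The animals were Sprague Dawley rats, male and adult, aged P70 to P80. Rats 3, 4, 7, 8, 15, 16, 23 and 24 received ethanol at 4 g/kg, and rats 9, 10, 19 and 20 received vehicle. Tissue was collected 3 h after the injection, and each of the 12 libraries came from 1 rat. The sample labels name the tissue as right hippocampus, whereas the paper describes dorsal hippocampus. The comparison asks how a single high dose of ethanol relates to hippocampal miRNA levels within hours.

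A miRNA hairpin is cut by Drosha and then Dicer into a short duplex. One strand of the duplex, the guide, is usually retained in an Argonaute protein and directs repression of mRNAs that pair with its seed, while the other strand is mostly degraded. The miR-22 hairpin is conserved among vertebrates and is transcribed within a noncoding host RNA. Its 3p arm is the usual guide, is abundant in heart, skeletal muscle and brain, and is known to repress Hdac4, a histone deacetylase.

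Both arms and the hairpin are shown because the measurements set one arm of the same hairpin against the other. Capitals in the arms mark the seed, bases 2 to 8, and capitals in the hairpin mark the arms. Sequences are from RefSeq, assembly GRCr8, written 5′ to 3′.
rno-miR-22-3p: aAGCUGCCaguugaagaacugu
rno-miR-22-5p: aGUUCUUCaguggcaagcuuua
miR-22 hairpin: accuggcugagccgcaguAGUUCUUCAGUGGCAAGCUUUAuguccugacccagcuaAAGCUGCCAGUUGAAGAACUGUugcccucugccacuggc

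In GRCr8 the hairpin lies on the plus strand at chr10:60805331-60805425, the 5p arm at chr10:60805349-60805370 and the 3p arm at chr10:60805387-60805408. The deposited counts carry no coordinates, and the submitters' processing notes name rn5, so these positions belong to the sequence table only. The nearest annotated genes in RefSeq are Mir6326, Wdr81 and Tlcd2. Mir6326 had 0 reads in each of the 12 libraries. Folding the 95-nt hairpin with RNAfold gave a minimum free energy of -43 kcal/mol, with 19 bases of each arm paired to the other arm. Each arm is 22 nt long, with a GC content of 45.5% for miR-22-3p and 40.9% for miR-22-5p. RefSeq holds no other rat mature miRNA with the seed AGCUGCC of miR-22-3p or the seed GUUCUUC of miR-22-5p. Among the 688 listed miRNAs with a sequence, the smallest edit distance to miR-22-3p was 9 bases, reached by miR-152-3p. For miR-22-5p it was 8 bases, reached by miR-216a-5p. Whether others lie at the same distance was not examined.

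Depth ranged from 1960702 to 4917929 counts per library, so that 3 counts, taken as the smallest detectable amount, corresponded to 0.610 to 1.53 CPM. CPM are counts scaled to a common library size with TMM, a method that leaves out the most extreme miRNAs when it sets the libraries to one level. Of the neuronal markers, both arms of miR-9a, miR-124-3p, miR-128-3p, miR-132-3p, miR-137-3p, miR-138-5p and miR-153-3p were retained. These 8 markers together held 36523 to 41838 CPM in vehicle rats and 33140 to 41347 CPM in ethanol rats. All 8 had a negative log2 fold change in ethanol (median -0.08), the direction of miR-22-3p and of 227 of the 420 retained miRNAs. By edgeR's quasi-likelihood test 0 of the 8 had an adjusted or unadjusted p under 0.05. Over all 420, 0 had an adjusted p under 0.05 and 17 (4.05%) an unadjusted p under 0.05. Within the ethanol group the mean of the 8 markers had r = 0.391 with miR-22-3p (exact permutation p = 0.342) and 0.406 with miR-22-5p (p = 0.328). Without ethanol rats 4 and 8, the farthest from the median of that mean, r was 0.701 and 0.844, given with no test. Some libraries differed in miRNAs of other tissues, and the values of the tissue lists are given beside the miR-22 results they touch. miR-10b-5p, on none of these lists, was at 153, 169 and 286 CPM in ethanol rats 3, 4 and 24. In the other ethanol rats it was at 17.4 to 41.8 CPM, and in vehicle rats at 5.94 to 28.9 CPM. Its relation to miR-22 was not tested.

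miR-22-3p was among the most abundant miRNAs of the hippocampus, ranking between 11 and 16 of the listed miRNAs in each library. In vehicle rats it stood at 23084 CPM in rat 9, 18594 in rat 10, 21558 in rat 19 and 23616 in rat 20. In ethanol rats the lowest value was 15036 CPM in rat 3, the median was 19001 and the highest was 19378 in rat 7. Vehicle rats 9, 19 and 20 exceeded every ethanol rat, whereas vehicle rat 10 lay inside the ethanol range, between rats 15 and 8. Within the ethanol group, rats 3 and 4 were the lowest, at 15036 and 16095 CPM, and the other 6 lay between 18189 and 19378 CPM. These levels rest on 32452 to 110995 reads per library, so counting error is a small part of the spread.

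miR-22-5p was rare, ranking between 266 and 315, and rested on 31 to 134 reads per library. Its levels in vehicle rats 9, 10, 19 and 20 were 24.4, 26.4, 28.2 and 24.0 CPM. In ethanol rats it ranged from 14.4 CPM in rat 3 to 30.2 CPM in rat 23, with rat 4 second lowest at 19.1 CPM. The vehicle range fell entirely within the ethanol range. As for the 3p arm, rats 3 and 4 held the lowest levels of all 12 libraries.

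**Figure D1:**
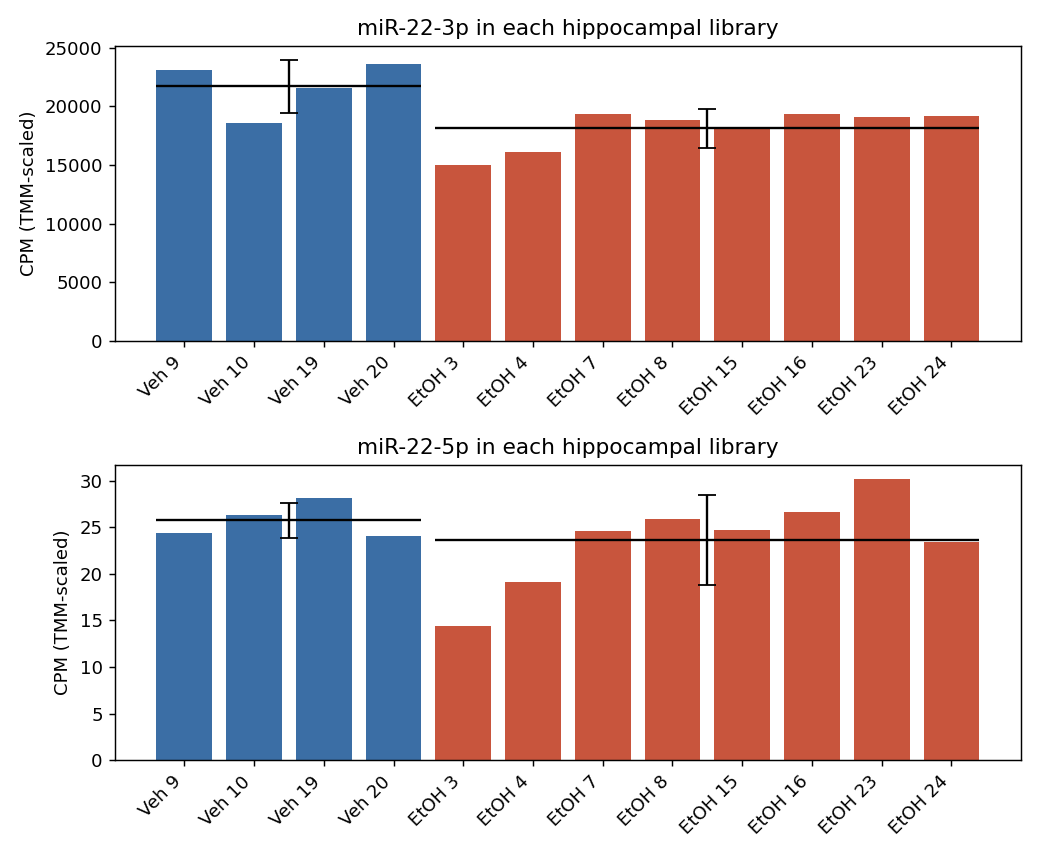
CPM after TMM scaling (y axes, starting at 0) of miR-22-3p (top) and miR-22-5p (bottom) in each library (x axes; Veh, vehicle; EtOH, ethanol; numbers name rats), with a line at each group mean and error bars of 1 SD. Ethanol rats 3 and 4 have the lowest bars in both panels, and vehicle rat 10 sits within the ethanol bars for miR-22-3p.

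The mean level of miR-22-3p in the 4 vehicle rats was 21713 CPM with an SD of 2255, and in the 8 ethanol rats 18153 CPM with an SD of 1665. The fitted log2 fold change was -0.26 (SE 0.09), a fold of 0.836. miR-22-5p averaged 25.8 ± 1.91 CPM (SD, n = 4) in vehicle and 23.6 ± 4.86 CPM (SD, n = 8) in ethanol rats, with a fitted log2 fold change of -0.12 (SE 0.15). The coefficient of variation of miR-22-5p was 7.41% in vehicle and 20.6% in ethanol rats, against 10.4% and 9.17% for miR-22-3p. Over all 420 retained miRNAs the median log2 fold change was -0.02, with 227 lower and 193 higher in ethanol. A log2 fold change below that of miR-22-3p was fitted for 31 of the 420, and below that of miR-22-5p for 98. Among the 80 miRNAs with a mean of at least 1000 CPM, 2 had a lower log2 fold change than miR-22-3p. Because the pair was chosen on this comparison, these places only describe it and lend no weight to a difference.

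With edgeR's quasi-likelihood test and Benjamini-Hochberg adjustment, 0 of 420 miRNAs (0%) passed an adjusted p of 0.05, the lowest being 0.971. At an unadjusted p under 0.05 there were 17 of 420 (4.05%). DESeq2 called 1 miRNA at an adjusted p under 0.05 and limma-trend called 0. The selection of the pair used this comparison, and nothing is read from where its members stand in these counts.

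Whether the miR-22-3p groups overlapped depended on the scaling. As a share of all counts in the library, with no further scaling, miR-22-3p made up 2.32%, 1.95%, 2.08% and 2.49% in vehicle rats 9, 10, 19 and 20, and between 1.57% and 1.94% in the 8 ethanol rats. On this scale every vehicle rat was above every ethanol rat, although rat 10 exceeded ethanol rat 24, the highest of its group, only by 19477 to 19396 CPM. With upper-quartile scaling rat 10 was again just above the highest ethanol rat, there rat 7, at 19962 against 19957 CPM. With TMM, DESeq2 size factors or the library median, 3 of the 4 vehicle rats were above every ethanol rat. The ratio of group means moved little, from 0.814 with library totals alone to 0.841 with DESeq2 size factors. Groups that did not overlap were found for 1 of 420 miRNAs (0.238%) with TMM and 1 of 420 with the library median, in neither case miR-22-3p. With DESeq2 size factors they were found for 0 of 420. With library totals alone and with upper-quartile scaling they were found for 1 of 420 (0.238%) each, which was miR-22-3p. Since miR-22-3p was chosen on this same comparison, its separation only describes it and lends no weight to a difference. For miR-22-5p no vehicle rat exceeded all ethanol rats under any of these 5 scalings, and the ratio of means lay between 0.892 and 0.922.

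The 3p arm outnumbered the 5p arm by 634 to 1047 reads per read, with a mean of 809 over the 12 libraries. On the log2 scale the ratio of 3p to 5p reads was 9.88, 9.46, 9.58 and 9.94 in vehicle rats 9, 10, 19 and 20. In ethanol rats it ranged from 9.31 in rat 23 to 10.03 in rat 3. The groups overlapped, with means of 9.72 ± 0.23 (SD, n = 4) and 9.61 ± 0.21 (SD, n = 8), and their difference of -0.11 was smaller than either SD.

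Expressed as a share, miR-22-5p held 0.106%, 0.142%, 0.131% and 0.102% of the hairpin's reads in vehicle rats 9, 10, 19 and 20, and 0.0954% to 0.158% in ethanol rats. The 95% Wilson interval ran from 0.0672% to 0.135% in ethanol rat 3, the lowest, and from 0.128% to 0.193% in ethanol rat 23, the highest. These intervals cover the counting error of reads only. No molecular identifiers were counted, so each read was treated as independent. The chi-square of the arm reads over the 12 libraries was 17.4 with 11 degrees of freedom, or 1.58 per degree. It includes the miR-22-3p reads of both groups, on which the pair was chosen, and is given with no test. Within groups, a chi-square test gave 2.29 per degree among vehicle rats (p = 0.0759) and 1.07 per degree among ethanol rats (p = 0.378). Differences in arm share between rats of a group beyond counting error were not detectable at this depth.

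**Figure D2:**
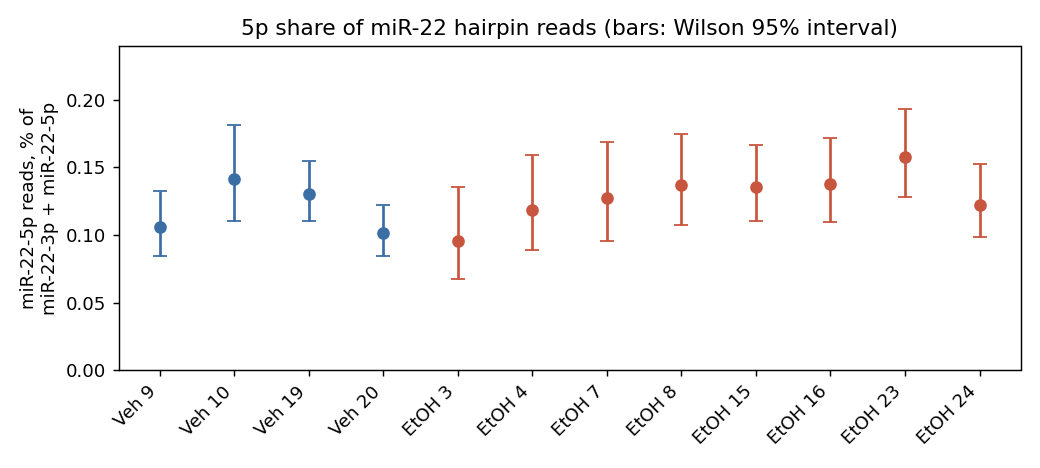
Share of miR-22 hairpin reads that came from the 5p arm (y axis, percent) in each library (x axis), with 95% Wilson intervals. Shares run from 0.0954% to 0.158%, vehicle and ethanol rats are interleaved, and most intervals overlap.

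Among 121 hairpins with both arms retained and at least 1 read of each arm in every library, miR-22 had the 11th most unequal arms. The median hairpin differed 15.4-fold between arms, and the 3p arm was the higher in 59 of the 121. The log2 arm ratio of miR-22 had a within-group SD of 0.22, against a median of 0.30 over the 121 hairpins. Many of those hairpins have more reads of the minor arm, so 54 with a minor arm at 10 to 50 CPM were set apart. Their median SD was also 0.30, and 15 of them had a smaller SD than miR-22.

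**Figure D3:**
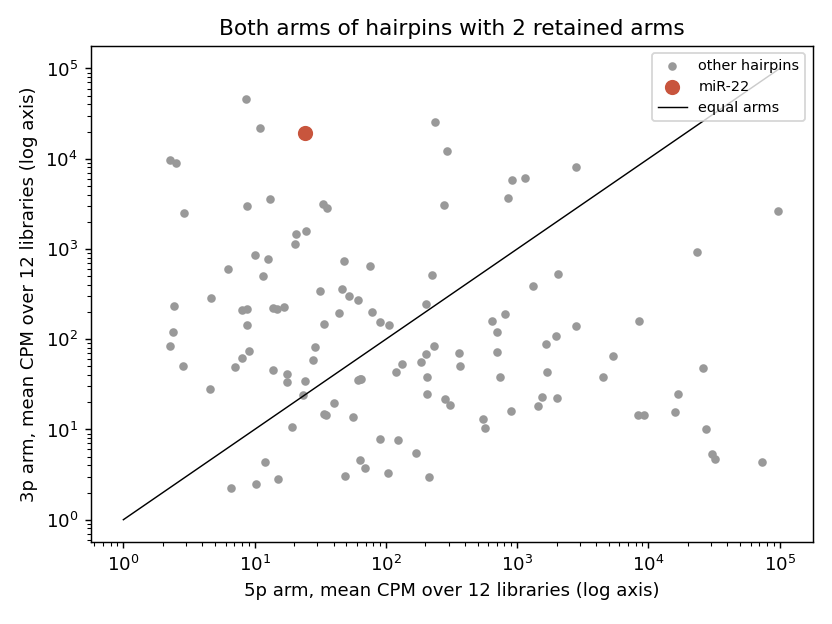
Mean CPM over the 12 libraries of the 3p arm (y axis, log) against the 5p arm (x axis, log) for 121 hairpins, 1 point each, with a line at equal arms. miR-22 lies at 19339 CPM for 3p and 24.3 CPM for 5p, far above the line.

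In the order of mean abundance miR-22-3p, at 19339 CPM, stood between miR-27b-3p at 21962 CPM and miR-30d-5p at 16771 CPM. miR-27b-3p exceeded it in 9 of 12 libraries, miR-9a-5p (23477 CPM) in 12 and miR-127-3p (25463 CPM) in 11. Of the miRNAs below it, miR-30d-5p exceeded it in 2 libraries, miR-125a-5p (15860 CPM) in 3 and miR-338-3p (12274 CPM) in 0. The order against miR-9a-5p and miR-338-3p thus held in every library, and the order against the others did not. miR-22-5p, at 24.3 CPM, stood among miR-378a-5p, miR-30d-3p and miR-145-3p above and miR-674-5p, miR-339-3p and miR-339-5p below, whose means lay between 23.4 and 24.9 CPM. Each of these exceeded miR-22-5p in 3 to 7 libraries, so the order within this group is not distinguishable.

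The arms varied together within the ethanol group. Over the 8 ethanol rats the log2 CPM of the arms had a Pearson r of 0.926 (exact permutation p = 0.00704) and a Spearman rho of 0.5 (exact permutation p = 0.216). Leaving out rats 3 and 4, the 2 farthest from the median of miR-22-3p, r was 0.187 over the other 6. The relation therefore rested on the low values of both arms in those rats. Over all 12 libraries r was 0.651 and rho was 0.245, and r was 0.519 without vehicle rat 20 and ethanol rat 3. These values hold the group difference on which miR-22-3p was chosen and are given with no test. Both arms are divided by the same library total, so the points share their scaling.

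Marker miRNAs of muscle differed widely between libraries, and the vehicle rat in which they were low was also the lowest of its group in miR-22-3p. The muscle list holds miR-206-3p, miR-1b and the 3p arms of miR-133a and miR-133b, which are enriched in striated muscle. The 3 retained exclude miR-206-3p, which reached at most 12 reads in a library. The retained members of the 4 had a negative log2 fold change in ethanol (median -1.76). By edgeR's quasi-likelihood test 1 of these 3 had an unadjusted p under 0.05, against 17 of all 420 (4.05%). An adjusted p under 0.05 was reached by 0 of the 3 and 0 of the 420. The sum over the list was 1684, 1626 and 1764 CPM in vehicle rats 9, 19 and 20 but 126 CPM in vehicle rat 10. In ethanol rats it was 1711 CPM in rat 16 and between 112 and 290 CPM in the other 7. Among the 4 libraries with high muscle miRNAs, the 3 vehicle rats held 21558 to 23616 CPM of miR-22-3p and ethanol rat 16 held 19373 CPM. Among the 8 with low muscle miRNAs, vehicle rat 10 held 18594 CPM, within the 15036 to 19378 CPM of the 7 ethanol rats. Within the ethanol group the muscle list mean had r = 0.0443 with miR-22-3p (exact permutation p = 0.919). Ethanol rats 16 and 7, at 1711 and 162 CPM of muscle miRNAs, held 19373 and 19378 CPM of miR-22-3p. miR-22-3p is itself expressed in muscle, and with 1 rat in the smaller arm of each set no test was run. With the mean of the muscle list as a covariate, added after the data were seen, the fitted log2 fold change of miR-22-3p was -0.18 (SE 0.10). The part of muscle RNA in the miR-22-3p difference was not tested.

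The summed vascular miRNAs were highest in the libraries in which both arms were lowest, and were also high in others. The list holds both arms of miR-126a, a miRNA of endothelial cells, and miR-143-3p and miR-145-5p, which are enriched in smooth muscle. Its sum was mostly miR-143-3p, with a mean of 46387 CPM, against 2042 for miR-126a-5p, 523 for miR-126a-3p and 206 for miR-145-5p. The log2 fold change in ethanol was 0.25 for miR-143-3p and 0.19 for miR-145-5p. It was -0.03 for miR-126a-3p and -0.06 for miR-126a-5p. The sum was 67050 CPM in ethanol rat 3 and 67951 CPM in ethanol rat 4, the highest of all, against 38686 to 48381 CPM in vehicle rats. Ethanol rat 8 followed at 61876 CPM, with 18872 CPM of miR-22-3p and 25.9 CPM of miR-22-5p, inside the range of the other ethanol rats. Rats 24 and 7 of the ethanol group, at 54896 and 51947 CPM, were also above every vehicle rat. They held 19148 and 19378 CPM of miR-22-3p, and 23.5 and 24.6 CPM of miR-22-5p. The lowest sums, 33325 and 32603 CPM, were in ethanol rats 15 and 23. Within the ethanol group the vascular list mean had r = -0.604 with miR-22-3p (exact permutation p = 0.0890), -0.734 with miR-22-5p (p = 0.0325) and 0.760 with the log2 arm ratio (p = 0.0236). Spearman's rho was -0.786 for miR-22-5p and 0.786 for the arm ratio. In this family of 21 relations within ethanol, 0 had a Benjamini-Hochberg adjusted p under 0.05, and the 2 smallest unadjusted p-values both became 0.342. The choroid plexus list (miR-204-5p, miR-211-5p, miR-448-3p and the miR-34b, miR-34c and miR-449a family) spanned 18433 to 82739 CPM in ethanol rats and 33253 to 58688 CPM in vehicle rats. Ethanol rat 3, lowest in both arms of miR-22, also had the lowest choroid plexus sum. In rat 4, second lowest in both arms, this sum was 55121 CPM. In ethanol rat 15 it was 20256 CPM, with 18189 CPM of miR-22-3p and 24.7 CPM of miR-22-5p. Within the ethanol group the choroid plexus list mean had r = 0.582 with miR-22-3p (exact permutation p = 0.105), and -0.006 without rats 3 and 15. The oligodendrocyte list (both arms of miR-219a, and miR-338-3p, all 3 retained) spanned 9332 to 17658 CPM in vehicle and 9827 to 19011 CPM in ethanol rats. Its 3 members had a positive log2 fold change in ethanol (median 0.19), as did 193 of all 420. The blood and microglia list (5 retained, among them miR-451-5p of red cells and miR-223-3p of myeloid cells) spanned 432 to 579 CPM and 304 to 722 CPM. The part of these tissues in the levels of miR-22 was not tested. In bulk tissue, fewer cells of a type and less RNA per cell cannot be told apart.

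**Figure D4:**
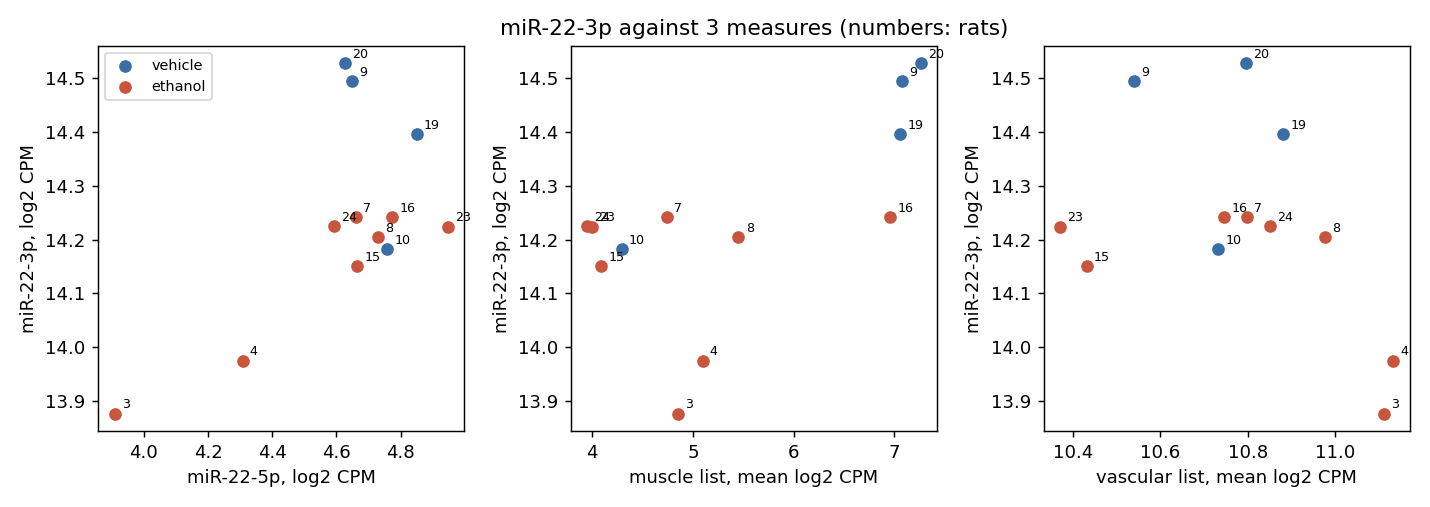
log2 CPM of miR-22-3p (y axes) against log2 CPM of miR-22-5p, the muscle list mean and the vascular list mean (x axes, mean log2 CPM for the lists), 1 point per library with its rat number. Ethanol rats 3 and 4 stand low in every panel and at the right of the vascular panel, and vehicle rats 9, 19 and 20 stand at the top right of the muscle panel.

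The fitted differences were small enough for single rats to matter. Without ethanol rats 3 and 4 together, a choice made after the data were seen, the log2 fold change of miR-22-3p was -0.16 (SE 0.07) and that of miR-22-5p changed sign to 0.04 (SE 0.10). Leaving out 1 rat at a time, miR-22-3p ranged from -0.33 without vehicle rat 10 to -0.18 without vehicle rat 20. miR-22-5p ranged from -0.18 without ethanol rat 23 to -0.01 without ethanol rat 3, and was -0.07 without vehicle rat 19.

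**Figure D5:**
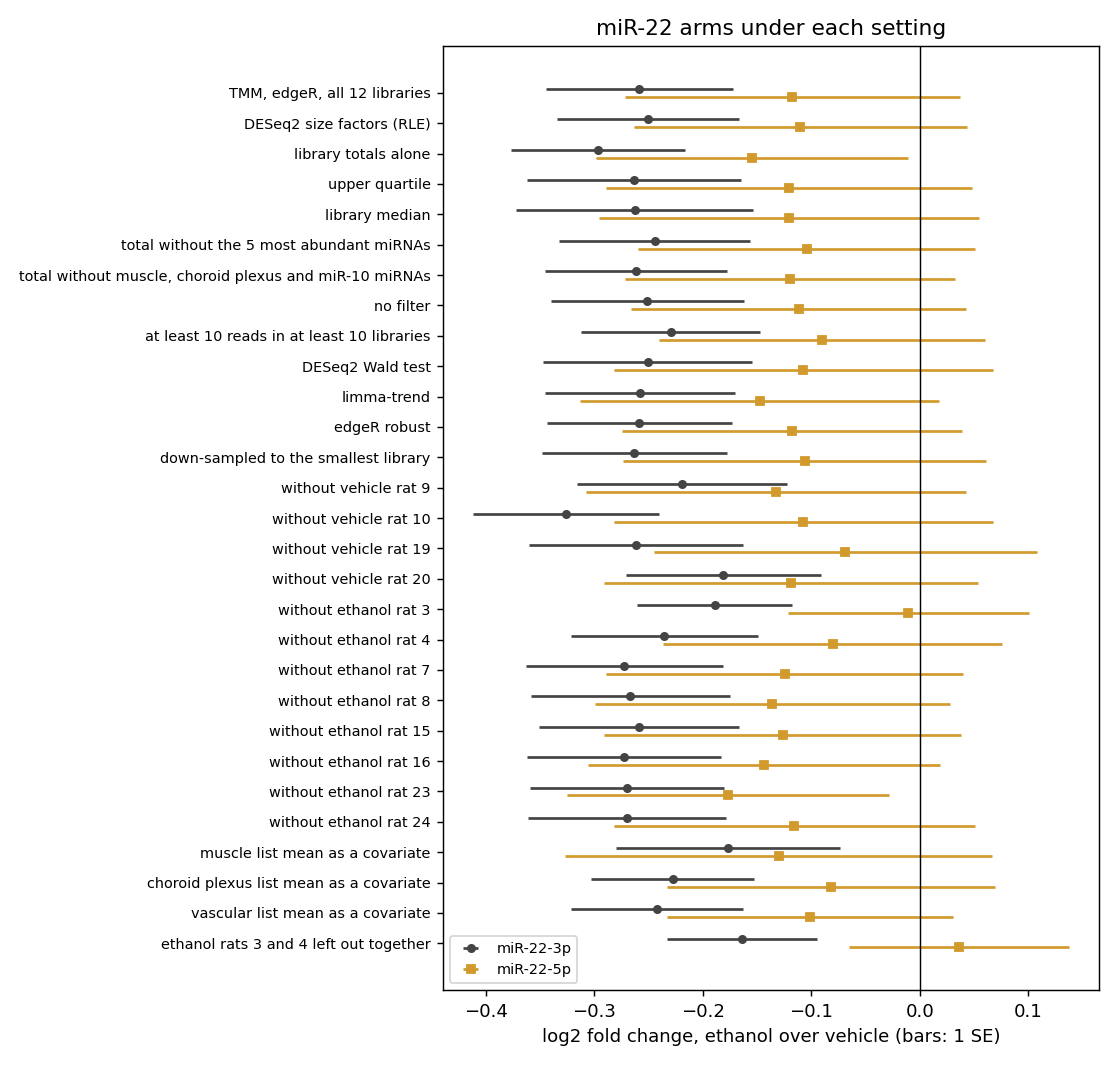
log2 fold change, ethanol over vehicle (x axis), of both arms under each scaling, filter, test, covariate and omission of rats (y axis), with bars of 1 SE. miR-22-3p lies between -0.33 and -0.16 throughout, and miR-22-5p between -0.18 and 0.04, with bars that cross 0 except with library totals alone and without ethanol rat 23.

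The miRNAs whose levels most resembled miR-22-3p were found among 183 with a mean of at least 100 CPM, by Pearson's r over the 12 libraries after subtraction of group means. The highest were miR-191a-5p (r = 0.899), miR-375-3p (0.824), miR-425-5p (0.788), miR-92b-3p (0.783) and let-7b-5p (0.776), against a median of 0.039 over the 183. The lowest were miR-873-5p (-0.814), miR-134-5p (-0.777) and miR-379-5p (-0.769). Without ethanol rats 3 and 4 these values moved to 0.774 for miR-191a-5p, 0.427 for let-7b-5p and -0.752 for miR-379-5p. miR-191a-5p, at 27574 CPM the most alike, had a log2 fold change of -0.03 between groups. The libraries share their composition, so these correlations are a description.

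Levels of other miRNAs known to repress Hdac4 are given for comparison. Of 7 such miRNAs, 5 were retained, 4 with a lower and 1 with a higher mean in ethanol. Their median log2 fold change was -0.07, against -0.02 over all 420. By edgeR's quasi-likelihood test, 0 of the 5 had an adjusted p under 0.05 and 0 an unadjusted p under 0.05. Over all 420 these counts were 0 and 17 (4.05%). miR-29a-3p was at 3070 ± 81.7 CPM (SD, n = 4) in vehicle and 2990 ± 336 CPM (SD, n = 8) in ethanol rats, and miR-29c-3p at 2945 ± 319 and 2797 ± 229 CPM. miR-29b-3p had a log2 fold change of -0.21 (SE 0.10). miR-1b, which is also on the muscle list, was at 341 ± 232 and 100.3 ± 169 CPM and followed the muscle libraries named above. No mRNA was measured in these libraries, so Hdac4 itself was not examined.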

How the data were processed

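Small RNA (gel-purified at 20 to 30 nt, read for 37 cycles) was sequenced from 12 rats. Per library, the authors deposited estimated counts (expected counts, some fractional) for 753 mature miRNAs, not scaled to depth. The submitters' processing notes name cutadapt, Partek and rn5; the counting method and miRNA annotation are not given in the sources used here, nor is the sequencing set of each library. The remaining vehicle rats of the study's design (8 per group) are not analysed here.

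Counts were rounded; 80.2% to 83.4% of values per library were whole. The filter dropped miRNAs below 10 reads in at least 10 libraries (420 retained). edgeR 4.0.16 (R 4.3.3) with TMM scaling and the quasi-likelihood test compared ethanol with vehicle, without covariates, with Benjamini-Hochberg adjustment. Log2 CPM used a prior count of 2. DESeq2 1.42.0 and limma 3.58.1 were alternatives, beside other scalings, filters, down-sampling and omission of each rat. The fit was tested on simulated data. Relations between measures used exact permutation over 40320 pairings of the 8 ethanol libraries, two-sided. Hairpins were folded with RNAfold 2.7.2. RefSeq sequences matched 688 of 753 names.

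The miRNAs named were both arms, the 3 next above and below each arm by mean CPM, and any sharing a seed. Also named were the 5 most and 3 least correlated with miR-22-3p, and up to 4 that target Hdac4. The marker miRNAs are those of the 6 tissue lists. miR-10b-5p was named because it differed between libraries. Results for 1 other list are not reported here. The members and lists were chosen with earlier results of these data known. The p-values of the edgeR, DESeq2 and limma fits and of the permutations measure the spread between these rats. Those of the chi-square tests have reads as units and set the arm shares against counting error.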

Additional observations from a re-analysis of the deposited data

Results flagged for a closer look

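The mean log2 CPM of the muscle miRNAs was examined with 19 other sets of values for a single rat standing apart from its group, and it was the 1 set of 20 that did, where chance gives about 1. The muscle mean was 4.29 in vehicle rat 10, while vehicle rats 9, 19 and 20 had 7.06 to 7.26. The gap made up 0.932 of the group's range. It is also the vehicle rat whose miR-22-3p level lay within the ethanol range, at 18594 CPM. Whether the 2 values are related was not tested.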

How the results depend on the processing

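Over 12 other scalings, filters and tests, the log2 fold change stayed between -0.30 and -0.23 for miR-22-3p and between -0.15 and -0.09 for miR-22-5p. With covariates added after the data were seen, miR-22-3p was at -0.18 (muscle), -0.23 (choroid plexus) and -0.24 (vascular). miR-22-5p reversed to 0.0361 without ethanol rats 3 and 4, and the difference in log2 arm ratio was then -0.19. Leaving out 1 rat moved miR-22-3p from -0.33 to -0.18, miR-22-5p from -0.18 to -0.01 and the arm ratio difference from -0.19 to -0.03, with the last value reached without vehicle rat 20. The number of miRNAs at an adjusted p under 0.05 was 0 in the edgeR fit, 1 with DESeq2's Wald test and 0 to 3 with 1 rat left out, the 3 without ethanol rat 16. The number at an unadjusted p under 0.05 ran from 5, without vehicle rat 20, to 24. The correlation of the arms within ethanol ran from 0.806 to 0.950 with 1 rat left out, and without rat 3 (r = 0.806) or rat 4 (r = 0.928) the exact permutation p was 0.0563. The chi-square of the arm share per degree of freedom over the 12 libraries ran from 1.13, without vehicle rat 20, to 1.74. The number of composition relations past adjustment was 0 throughout. The causes were not tested. No paired analysis was possible because the groups share no animal numbers. The 31 to 134 reads of miR-22-5p limit what the arm ratio can show.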
